A study of Mus musculus with 48 samples.

Results

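Complex I (NADH:ubiquinone oxidoreductase) is the entry point of the mitochondrial respiratory chain and is built from subunits of both the nuclear and the mitochondrial genome. The nuclear genes described here are all protein-coding genes of the count table whose mouse symbol starts with Nduf, and there were 46 of them among 48526 rows. By role, 7 encode nuclear core subunits, 9 encode accessory subunits of the peripheral arm, 19 encode accessory subunits of the membrane arm, 1 (Ndufab1) encodes the mitochondrial acyl carrier protein, 8 (Ndufaf1 to Ndufaf8) encode assembly factors that do not remain in the finished enzyme, and 2 (Ndufa4 and Ndufa4l2) carry the name although Ndufa4 is now counted with cytochrome c oxidase. RNA was sequenced from the cortex of 12 male wild-type C57BL/6JRj mice, 4 at each of 3 ages, with no transgene and no treatment in any group. The ages were 3 weeks (3w), a middle age that the sample labels give as 6 months and the protocol as 5 months (5m here), and 18 months (18m, given as 18 or 19 months in the protocol). Each mouse gave 4 libraries, namely RNA of the total homogenate (input_TH), RNA pelleted through a sucrose cushion from the homogenate (SC_TH), and the same fractions from synaptosomes (input_SYN and SC_SYN). The pellet is enriched in ribosome-bound RNA, and synaptosomes are pinched-off nerve endings with attached postsynaptic and glial membranes, so a count there is not a count from neurons alone. Groups were compared to see which transcripts are held in synaptosomes, which are pelleted with ribosomes, and how both vary with age.

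The peripheral arm of complex I projects into the matrix, takes electrons from NADH and passes them along iron-sulphur clusters to ubiquinone. The membrane arm pumps protons, and its core is encoded by the mitochondrial ND genes and translated inside the organelle. All proteins encoded by the nuclear members are made on cytosolic ribosomes and imported, and at a synapse, far from the cell body, mitochondria supply much of the ATP used in transmission.

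The results below turn mainly on 4 members, and the first 210 coding bases of each are shown because results given below turn on these genes. The capitals mark CG dinucleotides, and all sequences are 5′ to 3′ on the coding strand from the GENCODE M21 transcripts on GRCm38. Ndufa1, an accessory subunit of the membrane arm, lies at chrX:37187588-37191163 on the minus strand, and the stretch shown is its whole coding sequence without the stop codon. Ndufb9, also of the membrane arm, lies at chr15:58933756-58939488 on the plus strand. Ndufs7, a core subunit of the peripheral arm, lies at chr10:80249121-80256794 on the plus strand. Ndufaf4, an assembly factor, lies at chr4:24898083-24905001 on the plus strand.
Ndufa1: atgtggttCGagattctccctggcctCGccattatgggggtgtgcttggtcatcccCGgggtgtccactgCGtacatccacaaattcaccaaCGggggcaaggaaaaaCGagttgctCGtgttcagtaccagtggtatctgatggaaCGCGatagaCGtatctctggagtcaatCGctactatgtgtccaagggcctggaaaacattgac
Ndufb9: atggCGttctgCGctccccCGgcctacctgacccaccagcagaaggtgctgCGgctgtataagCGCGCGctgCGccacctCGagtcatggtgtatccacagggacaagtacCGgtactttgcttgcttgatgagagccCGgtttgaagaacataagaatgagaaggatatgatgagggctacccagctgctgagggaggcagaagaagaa
Ndufs7: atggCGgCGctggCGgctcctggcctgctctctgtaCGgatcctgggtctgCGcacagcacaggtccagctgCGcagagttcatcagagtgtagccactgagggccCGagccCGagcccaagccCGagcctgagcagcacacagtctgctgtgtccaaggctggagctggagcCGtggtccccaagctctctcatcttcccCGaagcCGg
Ndufaf4: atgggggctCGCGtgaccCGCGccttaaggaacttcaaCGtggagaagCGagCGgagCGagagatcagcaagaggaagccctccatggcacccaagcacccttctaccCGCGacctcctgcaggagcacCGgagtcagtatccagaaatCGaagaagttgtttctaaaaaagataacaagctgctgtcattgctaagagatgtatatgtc
The G and C content of the stretches shown was 52.4% for Ndufa1, 56.2% for Ndufb9, 65.7% for Ndufs7 and 52.9% for Ndufaf4. Over all annotated exons of the gene it was 47.5%, 55.8%, 58.8% and 40.2%, in the same order. Most members are short, with a median exonic length of 1643.5 bases against 3509 for all protein-coding genes.

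The 48 libraries held between 1780267 and 18590040 counts, and the shallowest group was input_SYN at 3w (1780267 to 4519629). Most members were well covered, but Ndufa4l2 had at most 32 reads in any library and fewer than 10 in 29 of the libraries. Counts below are given as CPM, that is counts scaled to a common library total, after TMM scaling over all 48 libraries. Synaptosomal libraries held more RNA of astrocyte markers (7 genes, summed level 12980 to 18210 CPM) than homogenate libraries (3784 to 6934 CPM) and far less of endothelial markers (5 genes, 2.99 to 19.0 CPM against 57.9 to 204 CPM). They also held less of the nuclear RNAs Malat1, Neat1 and Meg3, and summed levels of 8 neuronal markers were 7666 to 9922 CPM against 3032 to 6283 CPM. No gene of these 4 lists was at 0 in any group. In such bulk libraries, fewer cells or organelles of a kind and less RNA in each cannot be told apart, and the part of these shifts in the results below was not tested.

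Levels between genes are compared per kilobase of exon, as the mean CPM per kb over all libraries. Membrane-arm accessory subunits had a median of 34.5 CPM per kb (range 1.94 to 130), core subunits 22.8 (13.5 to 59.4) and peripheral-arm accessory subunits 17.2 (7.8 to 66.5). The 8 assembly factors had a median of 5.59 CPM per kb (1.13 to 9.74), and their range did not overlap that of the 7 core subunits. The values depend on the length used. With the principal transcript in place of all exons, the medians were 45.8 CPM per kb for the membrane-arm subunits, 40.9 for the core subunits (27.1 to 84.7), 31.9 for the 7 peripheral-arm subunits with such a length and 5.54 for the 6 such assembly factors (2.85 to 8.93). Ndufb9 was the most abundant member at 130 CPM per kb, followed by Ndufc2 at 84.3 and Ndufa8 at 77.6. Ndufab1, which also serves mitochondrial fatty acid synthesis, had a level of 2.64 CPM per kb.

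The median member had a higher level in both pellets than in the inputs. In each library the median log2 CPM over the members was taken, and in input_TH it was 4.43 ± 0.051 at 3w, 4.44 ± 0.066 at 5m and 4.49 ± 0.075 at 18m (SD, n = 4 mice). In SC_TH it was 4.63 ± 0.057, 4.88 ± 0.115 and 5.07 ± 0.086, and the 3 ages did not overlap there, with mice at 4.58 to 4.70, 4.76 to 4.99 and 5.00 to 5.15. In input_SYN it was 4.72 ± 0.113, 4.70 ± 0.128 and 4.74 ± 0.149, ages that overlapped. In SC_SYN it was 5.37 ± 0.114, 5.30 ± 0.133 and 5.15 ± 0.187, and the ages overlapped there too.

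**Figure D1:**
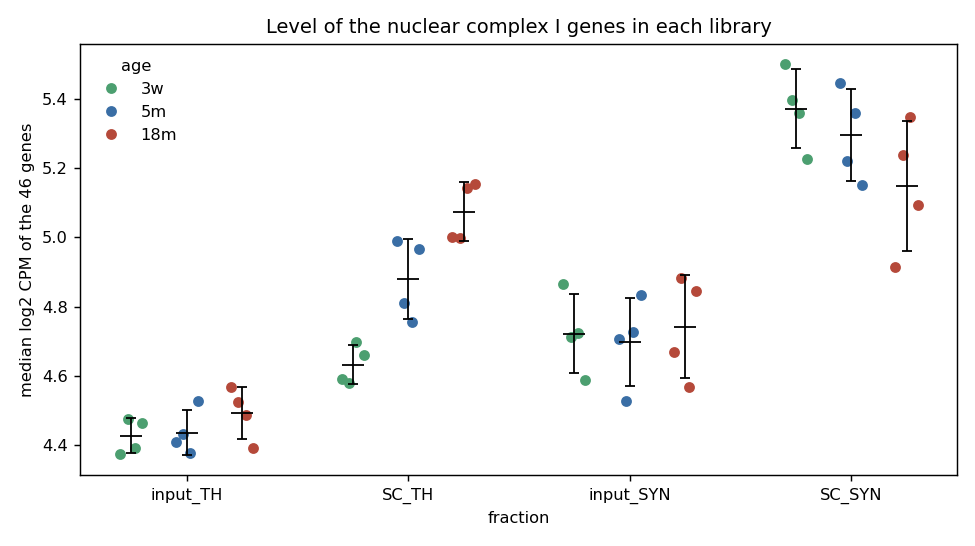
Median level of the members in each library (y axis, log2 CPM) for the 4 fractions and 3 ages, with a point per mouse and the mean and SD of 4 mice. SC_TH at 3w lies between 4.58 and 4.70, below SC_TH at 18m (5.00 to 5.15), and the ages of SC_SYN overlap.

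With TMM scaling, complex I transcripts were more often higher than lower in synaptosomes. In the pellet at 3w, 26 of the 46 members (56.5%) were higher in SC_SYN than in SC_TH and 3 were lower, where 31.1% of all genes tested were higher and 32.4% lower (edgeR's quasi-likelihood test, Benjamini-Hochberg adjusted p under 0.05 over all genes, used for every call below). At 5m, 20 members were higher and 5 lower, with 32.1% and 35.8% of all genes. At 18m, 12 were higher and 7 lower, with 29.9% and 32.2% of all genes, so that the members' share of higher calls (26.1%) was then below that of all genes. Without mouse 198 the 19 calls at 18m became 11. The median log2 difference of the members, SC_SYN over SC_TH, was 0.46, 0.35 and 0.15 at the 3 ages, beside -0.04, -0.09 and -0.07 over all genes tested. The RNAs Malat1, Neat1 and Meg3 summed to 796 to 2044 CPM in SC_SYN at 3w and 5m and to 2096 to 3301 CPM at 18m, and their part in the lower count was not tested. In the inputs there were 25 members higher and 7 lower at 3w (all genes 31.7% and 39.3%), 27 and 7 at 5m (32.6% and 40.1%) and 24 and 9 at 18m (32.9% and 39.4%). The input medians were 0.41, 0.49 and 0.35, beside -0.18, -0.18 and -0.12 over all genes. Each count of members among the 46 that were lower in synaptosomes than in homogenate, here and in the next paragraphs, includes Ndufa4l2. That gene passed the filter on low counts only through the homogenate, so its lower call is no result.

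These directions depend on the scaling. TMM factors were 0.801 to 0.884 in synaptosomal and 1.146 to 1.244 in homogenate libraries, and scaling by library size alone put the median difference of all genes at -0.83 to -0.59 in the 6 comparisons. On that scale the members' medians were -0.09, -0.24 and -0.38 in the pellets and -0.16, -0.17 and -0.23 in the inputs, still above those of all genes. The counts of higher and lower members became 10 and 9, 4 and 17, and 2 and 23 in the pellets, and 14 and 20, 12 and 19, and 8 and 20 in the inputs. Statements that a member was higher or lower in synaptosomes are therefore relative to the bulk of genes.

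By role, the 36 structural subunits gave 24 higher and none lower past the threshold in the pellet at 3w (27 of either direction at an unadjusted p under 0.05), 19 and 1 at 5m and 11 and 2 at 18m, when their share of higher calls (30.6%) was close to that of all genes (29.9%). Among these, the 19 accessory subunits of the membrane arm gave 15, 14 and 7 higher, with 1 lower at 5m. DESeq2 called 24, 19 and 12 of all 46 members higher and 3, 5 and 8 lower in the pellets. The 9 accessory subunits of the peripheral arm gave 7, 3 and 3 higher at the 3 ages. Of the 8 Ndufaf assembly factors, 1, 0 and 0 were higher and 2, 3 and 4 lower in the pellets, shares of lower calls (25%, 37.5% and 50%) set beside 32.4%, 35.8% and 32.2% of all genes. In the inputs the subunits gave 23 higher and 3 lower, 24 and 3, and 22 and 5, and the Ndufaf factors 1 and 3, 2 and 3, and 1 and 3. The 37.5% of the Ndufaf factors lower in each input was near the 39.3% to 40.1% of all genes, and the roles were not tested against each other.

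In all 6 comparisons, over pellet and input at 3 ages, 10 of the 46 members were higher in synaptosomes. In single comparisons 29.9% to 32.9% of all genes were higher. The share of all genes higher in all 6 was not computed, so the count of 10 only describes the members. Among these 10 were the zinc-binding peripheral-arm subunit Ndufs6, Ndufa13, also known as GRIM-19, the membrane-arm subunits Ndufa1, Ndufb4, Ndufb6, Ndufb9, Ndufb10 and Ndufs5, and Ndufa4. With the mouse as a block, or with DESeq2, 9 of them passed all 6, Ndufb10 being the exception, and with library size scaling Ndufb9 alone did. Ndufb9 was the clearest case. Its CPM in input_TH at 3w was 65.3, 72.3, 67.0 and 69.0 in the 4 mice, and in input_SYN 244, 280, 275 and 242. In SC_TH at 3w it was 95.0, 90.5, 81.6 and 81.5, and in SC_SYN 198, 251, 301 and 180. Every synaptosomal library lay above every homogenate library at each age, with the lowest SC_SYN value of any age at 130 CPM and the highest SC_TH value at 95.0. The log2 difference in the inputs was 2.06 (SE 0.091, adjusted p = 2.98e-17) at 3w, 1.95 at 5m and 1.56 at 18m, and in the pellets 1.46 (SE 0.133, adjusted p = 7.04e-10), 1.00 and 0.88. Of the read-length windows of the Ndufb9 transcripts, 11% also occur in another gene, so part of its counts depends on how shared reads were assigned. The same limit holds for Ndufa13 (23.9%), Ndufb6 (23.8%), Ndufb4 (16%) and Ndufs5 (12.6%), while Ndufa1, Ndufa4, Ndufb10 and Ndufs6 shared no such window.

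Ndufa1 stood highest over the homogenate of all 46 members in the inputs at 3w and 18m. Its CPM at 3w was 7.79, 6.84, 5.78 and 6.69 in input_TH and 31.4, 29.9, 29.6 and 29.6 in input_SYN, groups that did not overlap. The log2 difference was 2.28 (SE 0.156, adjusted p = 2.78e-13), and it was 1.85 at 5m and 2.08 at 18m. In the pellets it was 1.29, 0.87 and 0.92. Ndufb10 and Ndufb4, further membrane-arm subunits, were higher in input_SYN by 1.77, 1.46 and 1.24 and by 1.31, 1.39 and 1.26 on the log2 scale. Of the core subunits, Ndufs7 was higher in synaptosomes in none of the 6 comparisons.

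The assembly factors Ndufaf4 and Ndufaf5, the latter a hydroxylase of Ndufs7, were lower in synaptosomes in all 6 comparisons, and Ndufaf6 in 5. Ndufaf4 in the pellets at 5m had 11.5, 12.0, 10.2 and 11.1 CPM in SC_TH and 5.54, 5.26, 5.00 and 6.09 in SC_SYN. The SC_SYN values were all below the SC_TH values. Its log2 difference was -0.86 (SE 0.161, adjusted p = 4.72e-05), -0.96 and -0.69 in the pellets and -0.79, -0.92 and -0.34 (adjusted p = 0.0405) in the inputs, and the last was lost in 5 of 8 alternatives, the mouse as a block among them. Ndufaf5 differed by -0.43, -0.65 and -0.66 in the pellets and by -0.74, -0.54 and -0.63 in the inputs. Ndufaf6 differed by -1.07, -1.16 and -0.94 in the inputs and by -0.55 and -0.71 in the pellets at 5m and 18m, with -0.36 at 3w not past the threshold, and it had fewer than 10 reads in 12 libraries. Ndufab1 was lower in the inputs at every age (-0.68, -0.68 and -0.53).

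**Figure D2:**
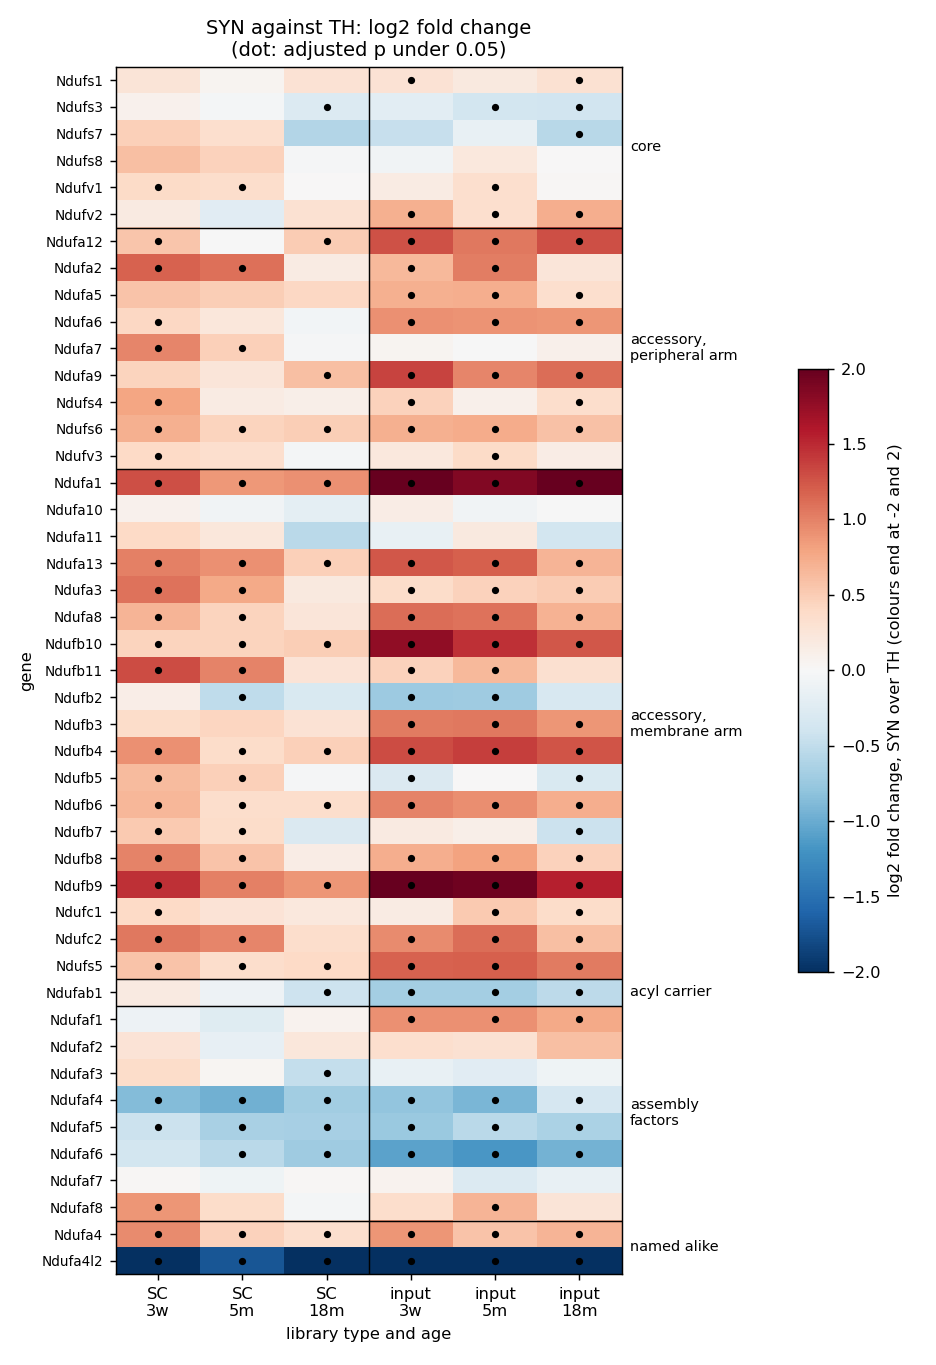
Colour map of the log2 difference, synaptosomes over homogenate with TMM scaling, for 45 of the members (rows, by role) in pellets and inputs at the 3 ages (columns), with a dot for an adjusted p under 0.05 and colours ending at -2 and 2. Ndufb9 and Ndufa1 are the darkest red rows in the inputs (up to 2.06 and 2.28), and Ndufaf4 and Ndufaf5 are blue with a dot in all 6 columns. The row of Ndufa4l2 rests on a gene that passed the count filter only through the homogenate.

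Other genes of oxidative phosphorylation were counted in the same way. Of 40 tested nuclear genes of complexes II to V, 32, 25 and 10 were higher in SC_SYN than in SC_TH at 3w, 5m and 18m, and 0, 0 and 4 lower. Of all genes, 31.1%, 32.1% and 29.9% were higher there and 32.4%, 35.8% and 32.2% lower. At 18m the share of higher calls among the 40 was below that of all genes. In the inputs 28, 26 and 22 of the 40 were higher and 4, 2 and 3 lower. The shares of all genes were 31.7%, 32.6% and 32.9% higher and 39.3%, 40.1% and 39.4% lower. The 7 mitochondrially encoded ND genes were all higher in SC_SYN at each age, and 2, 3 and 5 of them in input_SYN. There mt-Nd3 was lower at 3w (-0.89) and at 5m (-0.57). Among 9 assembly factors with other names, Acad9, an acyl-CoA dehydrogenase family member needed for assembly, was lower in all 6 comparisons (-2.10, -2.08 and -2.02 in the inputs), whereas Timmdc1 was higher in all 6 (1.04, 0.85 and 0.76 in the inputs). Of 7 regulators of mitochondrial genes, Nrf1, a transcription factor of many respiratory genes, was lower in all 6 (-1.27, -0.77 and -0.64 in the inputs).

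Ndufa4 was higher in synaptosomes in all 6 comparisons, and its paralog Ndufa4l2 was too sparse there for a level. Ndufa4 had 64.7, 64.5, 70.03 and 64.5 CPM in SC_TH at 3w and 131, 131, 115 and 115 in SC_SYN, without overlap. Ndufa4l2 (chr10:127514967-127517154, plus strand), known for its induction by low oxygen and its expression in vessel-associated cells, had 14 to 32 reads per library in input_TH and 2 to 23 in SC_TH, but 0 to 3 in input_SYN and 0 to 5 in SC_SYN. It passed the filter on low counts only through the homogenate, so its lower call in all 6 comparisons was built into its being tested and is no result, and no fold is given at these counts. In the inputs, summed endothelial markers were at 128.5 to 204.3 CPM in input_TH and 2.99 to 12.2 in input_SYN. For 6 markers of pericytes and smooth muscle the sums were 117 to 284 and 50.5 to 74.1 CPM. In the pellets the sums of these 6 were apart at 3w (116 to 137 CPM in SC_TH, 67.1 to 95.3 in SC_SYN). They overlapped at 5m (91.4 to 126 and 87.7 to 102 CPM) and at 18m (102 to 117 and 73.0 to 111 CPM). Single markers differed there. At 3w Pdgfrb had a mean of 28.3 CPM in SC_TH and 37.2 in SC_SYN, and Rgs5 of 56.3 and 16.1. The part of these markers in the Ndufa4l2 values was not tested.

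**Figure D3:**
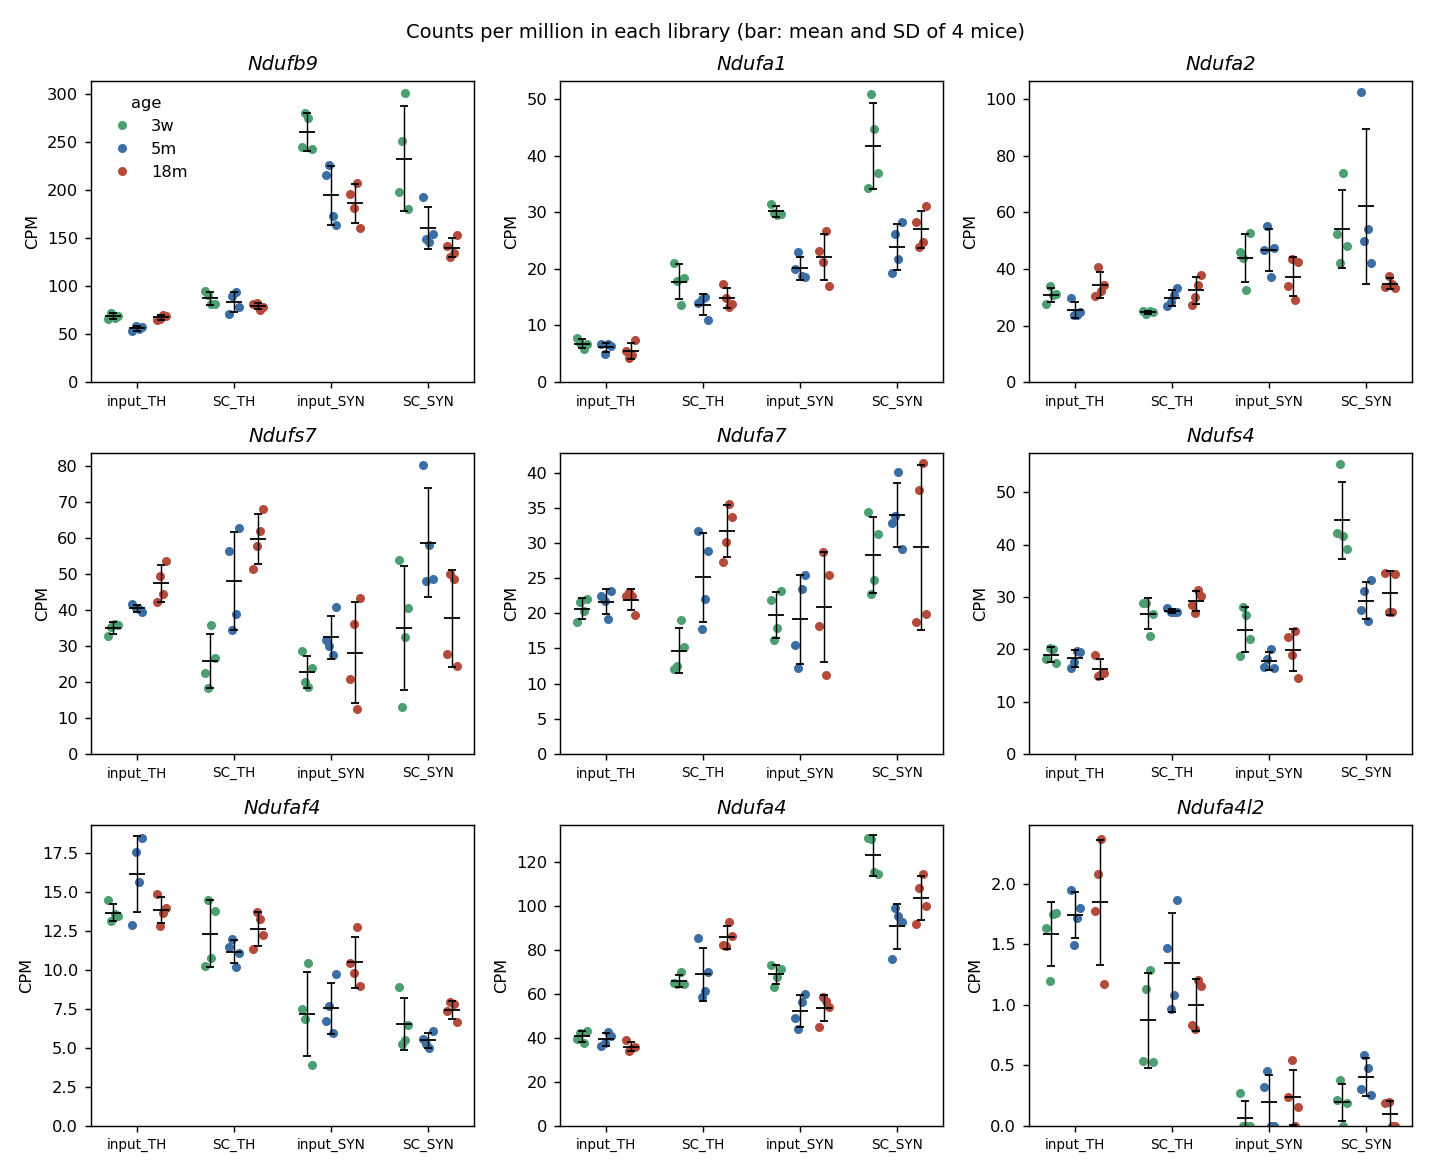
CPM of 9 members in each of the 48 libraries (y axis, linear from 0), with a point per mouse, grouped by fraction (x axis) and age (colour), and bars for the mean and SD of 4 mice. Ndufb9 in synaptosomal libraries lies at 130 to 301 CPM, above all homogenate libraries.

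In the homogenate most members were higher in the pellet than in the input, and in synaptosomes fewer passed the test with a median of similar size. The ratio of pellet over input is the quantity often called translational efficiency, although RNA can also pellet with other heavy particles. In the homogenate, 27 members were higher in SC_TH than in input_TH at 3w and 5 lower (all genes 26.1% and 26.6%), 37 higher and 1 lower at 5m (29.9% and 32.2%), and 37 and 1 at 18m (31.3% and 32.7%). The members' medians were 0.44, 0.51 and 0.51 on the log2 scale, beside -0.05, -0.05 and -0.01 over all genes. In synaptosomes, where fewer genes of any kind passed, 14 of 45 members tested were higher at 3w and 12 at 5m, with none lower by edgeR or DESeq2 (all genes 9.04% higher and 9.5% lower at 3w, 9.66% and 10.3% at 5m), and 8 were higher and 1 lower at 18m (5.88% and 6.7%). The medians were 0.49, 0.47 and 0.37, beside about 0.01 over all genes. Without mouse 190 the 14 calls at 3w became 9, and without mouse 191 the 12 calls at 5m became 7.

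In both compartments and at all 3 ages, 7 of the 46 members were higher in the pellet. The share of all genes that were so was not computed, and the count of 7 only describes the members. Among these 7 were the core subunits Ndufs3 and Ndufv1, the last of which carries the NADH site, the peripheral-arm subunit Ndufs4, whose loss gives a mouse model of Leigh syndrome, the membrane-arm subunits Ndufb6 and Ndufs5, and Ndufa4. Of the read-length windows of Ndufb6, Ndufs5 and Ndufs3, 23.8%, 12.6% and 8.3% also occur in another gene. Ndufv1 was higher by 0.68, 0.85 and 0.61 in the homogenate at 3w, 5m and 18m and by 0.83, 0.81 and 0.55 in synaptosomes. Ndufs3 was higher by 0.36, 0.44 and 0.55 and by 0.60, 0.72 and 0.64. Ndufs4 was higher by 0.61, 0.66 and 0.91 and by 0.88, 0.67 and 0.63. Ndufs5 was higher in the homogenate by 1.57, 1.44 and 1.42, against 0.88, 0.55 and 0.73 in synaptosomes. In the homogenate Ndufb10 (1.73, 1.42 and 1.14) and Ndufa1 (1.48, 1.23 and 1.49) were also high, whereas in synaptosomes Ndufb10 was at 0.33, 0.37 and 0.34 and Ndufa1 at 0.43, 0.20 and 0.28, values of which none passed the test. Members lower in the pellet were few. In the homogenate at 3w they were Ndufa3, Ndufa7, Ndufb2, Ndufb5 and Ndufaf8 (-0.69), at 5m Ndufaf4 (-0.45), and at 18m Ndufa4l2. Ndufa4l2 had only 9 to 21 reads per library in SC_TH and 16 to 32 in input_TH at 18m, so that call rests on few reads. In synaptosomes Ndufb9 was lower at 18m (-0.44), a call lost in 5 of 8 alternatives (library size, no filter, and without mouse 195, 196 or 197).

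**Figure D4:**
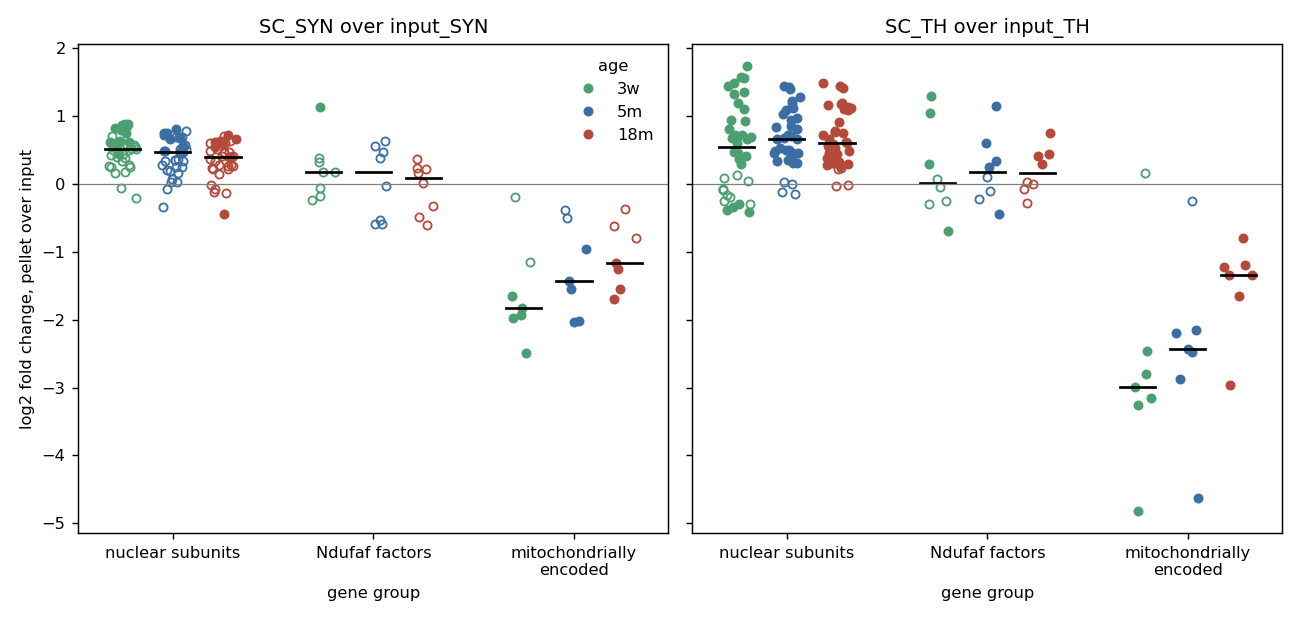
Log2 ratio of pellet over input (y axis) for the 36 nuclear subunits, the 8 Ndufaf factors and the 7 mitochondrially encoded ND genes (x axis) at the 3 ages (colour), in synaptosomes on the left and homogenate on the right, with filled points for an adjusted p under 0.05 and black bars for medians. Most nuclear subunits lie above 0, and the ND genes lie mostly below, with medians down to -2.99 in the homogenate at 3w.

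The mitochondrially encoded subunits of the same enzyme went the other way. Of the 7 ND genes, 6, 6 and 7 were lower in SC_TH than in input_TH at 3w, 5m and 18m (medians -2.99, -2.43 and -1.34), and 5, 5 and 4 were lower in SC_SYN than in input_SYN (-1.83, -1.44 and -1.17). mt-Nd1 had 1350 ± 254, 1459 ± 201 and 991 ± 226 CPM in input_TH (SD, n = 4) and 176 ± 38.6, 302 ± 127 and 418 ± 83.4 in SC_TH. mt-Nd6, the ND gene of the other DNA strand, was at 0.16 in the homogenate at 3w. Nuclear genes of complexes II to V resembled the nuclear members, with 27, 32 and 37 of 40 higher and 5, 0 and 1 lower in the homogenate pellet. Of all genes, 26.1%, 29.9% and 31.3% were higher there and 26.6%, 32.2% and 32.7% lower.

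Within SC_SYN, 4 members fell between 3w and 5m (all genes 4.02% lower, and DESeq2 called 4 members too), 11 having an unadjusted p under 0.05. Ndufa1 had 34.2, 50.8, 44.7 and 36.9 CPM at 3w and 19.3, 26.1, 21.7 and 28.2 at 5m, a log2 change of -0.83 (SE 0.164, adjusted p = 0.00787). Ndufs4 had 42.2, 55.5, 41.6 and 39.2 CPM and then 27.4, 31.2, 25.4 and 33.3, a change of -0.64 (SE 0.152, adjusted p = 0.0214). Neither gene's ages overlapped. Ndufa4 had 131, 131, 115 and 115 CPM and then 75.7, 99.1, 95.3 and 92.5 (-0.47, SE 0.114, adjusted p = 0.0238), and Ndufb9 changed by -0.57 (SE 0.154, adjusted p = 0.0369), with 1 mouse at 3w (180 CPM) below 1 mouse at 5m (192 CPM). The 4 calls became 1 without mouse 188 and 2 without mouse 191, 193 or 194. Summed oligodendrocyte markers fell in the same libraries from 8131 to 9900 CPM at 3w to 3170 to 3531 at 5m, with all 6 genes lower, and microglial markers were at 436 to 537 and 746 to 900 CPM. Their part was not tested. In input_SYN Ndufa1 alone fell between these ages (-0.60, SE 0.160, adjusted p = 0.0488, all genes 1.94% lower), from 29.6 to 31.4 CPM to 18.5 to 23.0 CPM, and it was not past the threshold when any 1 of the 8 mice was left out, while DESeq2 called 2 members. Ndufb9 (-0.43, adjusted p = 0.0632) and Ndufa4 (-0.40, adjusted p = 0.104) followed by p.

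Within SC_TH, 10 members rose between 3w and 5m (all genes 9.48% higher, and DESeq2 called 8 members), 17 having an unadjusted p under 0.05. Ndufs7 had 22.5, 18.3, 35.7 and 26.5 CPM at 3w and 56.4, 34.4, 38.9 and 62.7 at 5m, a change of 0.86 (SE 0.191, adjusted p = 0.00595) in which the highest mouse at 3w lay above the lowest at 5m. Ndufa7, of the peripheral arm, had 12.0, 12.4, 19.0 and 15.1 CPM and then 31.7, 17.7, 22.0 and 28.9 (0.75, SE 0.172, adjusted p = 0.00734), also with overlap. The other 8 were the core subunit Ndufs8 (0.59), the membrane-arm subunits Ndufa11 (0.72), Ndufb11 (0.59), Ndufb7 (0.53), Ndufb2 (0.41), Ndufb4 (0.38) and Ndufa10 (0.26), and the assembly factor Ndufaf3 (0.50). The 10 calls became 2 without mouse 188, 191 or 194, 4 without mouse 187 or 190, and 13 without mouse 192. Over 11 alternatives, the calls of Ndufaf3 and Ndufb2 were lost in 7, those of Ndufa10, Ndufa11 and Ndufb4 in 6, that of Ndufs8 in 5 and that of Ndufb11 in 4. Libraries at 5m were deeper (5992223 to 13484631 counts) than at 3w (3058278 to 7119395), and Malat1, Neat1 and Meg3 together were at 6640 to 9694 and 9288 to 12260 CPM, whose part was not tested.

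Within input_TH, 2 members fell between 3w and 5m (all genes 7.05% lower), namely Ndufb9 (-0.30, SE 0.051, adjusted p = 9.35e-04) and Ndufa8 (-0.31, SE 0.069, adjusted p = 0.00697), both of the membrane arm. Ndufb9 went from 65.3 to 72.3 CPM to 52.8 to 58.7 CPM without overlap. With library size scaling, or without mouse 191, the calls became 5. Between 5m and 18m, 13 members rose (all genes 8.18% higher, and DESeq2 called 12 members), all 13 being subunits. Among them were the core subunits Ndufv1 (0.36) and Ndufs7 (0.26), and Ndufa2 (0.46), Ndufv3, Ndufb7 (0.44), Ndufa8 (0.42), Ndufa13 (0.41), Ndufa11 (0.39), Ndufb9 (0.30), Ndufc2, Ndufb8 and the X-linked Ndufb11 (0.18). The call of Ndufb11 was lost in 9 of 11 alternatives, DESeq2 and library size among them, and that of Ndufs7 in 5 of 11. Ndufb9 returned to 64.7 to 69.6 CPM. Ndufa13 had 48.0, 42.1, 44.3 and 42.8 CPM at 5m and 55.6, 62.5, 52.6 and 59.0 at 18m (adjusted p = 0.00447), without overlap, although 23.9% of its read-length windows occur in another gene, mainly the overlapping Tssk6, and counting ignored strand. In the same comparison 6 of the 7 mitochondrial ND genes were lower (mt-Nd3 -0.92, mt-Nd1 -0.52), and 14 of 40 nuclear genes of complexes II to V were higher.

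In 4 of the 8 comparisons of ages, the changes varied clearly with base composition over the members, and in the other 4 they did so weakly. Over the members, the Spearman correlation of log2 change with exonic G and C content was 0.73 for input_TH between 5m and 18m (n = 46 genes), and 0.54 over all genes tested. Of the 13 members that rose there, 12 were among the 23 members of higher G and C content (median change 0.25, against -0.02 in the other 23). For SC_TH between 3w and 5m the correlation was 0.52 over members and 0.39 over all genes, with 8 of the 10 risers in the upper set. For SC_SYN between 3w and 5m it was 0.55 and 0.39, with 3 of the 4 fallers in the lower set, and between 5m and 18m it was -0.65 and -0.52. In the other 4 comparisons it was 0.09 and -0.30 for input_SYN between 3w and 5m and between 5m and 18m, -0.23 for input_TH between 3w and 5m, and 0.22 for SC_TH between 5m and 18m. These are descriptions over genes of the same libraries, and genes are not independent. After removal of a trend on G and C content and length over all genes, the members' median change was 0.07 in place of 0.09 in input_TH between 5m and 18m, 0.16 in place of 0.11 in SC_TH between 3w and 5m, and -0.03 in place of -0.11 in SC_SYN between 3w and 5m. Beyond these values, the part of base composition, in the cells or in library making, was not tested.

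**Figure D5:**
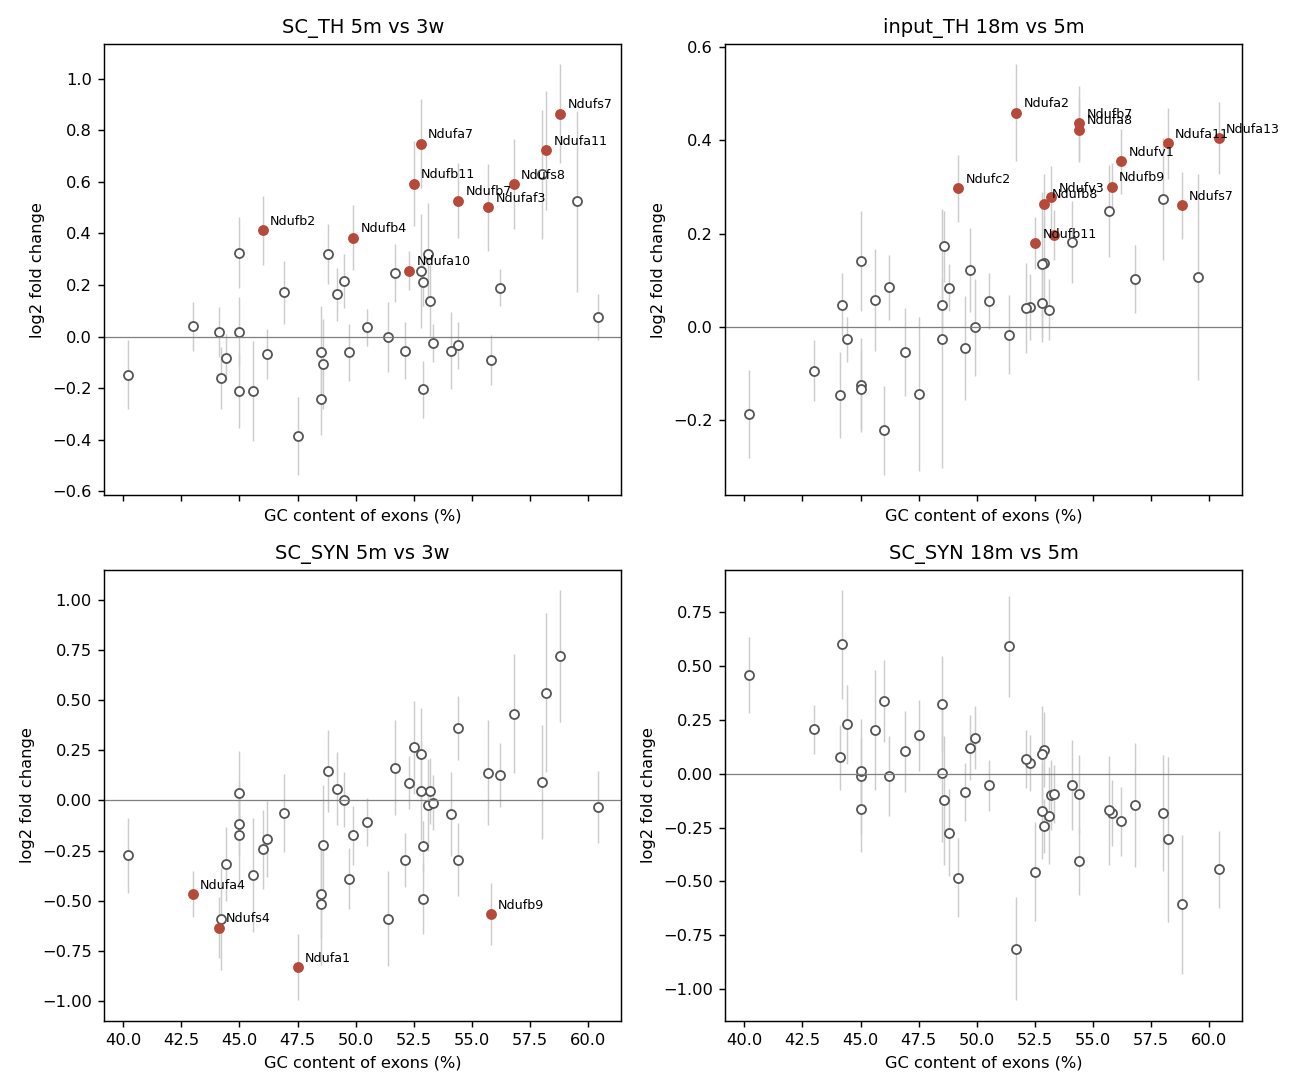
Log2 change of each member between ages (y axis) against the G and C content of its exons (x axis, %) in 4 of the comparisons, with filled points for an adjusted p under 0.05 and bars for the SE. The 13 risers in input_TH between 5m and 18m lie mostly at high G and C content (Spearman rho 0.73, n = 46), and the 4 fallers in SC_SYN between 3w and 5m mostly at low content.

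No member passed the test between 5m and 18m in the other fractions, where few genes of any kind did. In SC_SYN 0.014% of all genes were called, 7 members had an unadjusted p under 0.05 and DESeq2 called 1 member, and the smallest p were those of Ndufa2 (-0.81, adjusted p = 0.179), Ndufc2 (-0.48) and Ndufaf4 (0.46). In SC_TH 2.17% of all genes were called, 8 members had an unadjusted p under 0.05 and DESeq2 called 1, and without mouse 191 2 members passed, and 36 of 46 members were above 0. The smallest p belonged to Ndufa4 (0.32, adjusted p = 0.0775), Ndufaf2 (-0.41) and Ndufs3 (0.18). In input_SYN 0.139% of all genes were called, 2 members had an unadjusted p under 0.05, DESeq2 called 0, and Ndufv2 (0.46, adjusted p = 0.371), Ndufa2 (-0.34) and Ndufaf4 (0.41) had the smallest p.

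The change with age in synaptosomes was then set against that in the homogenate by an interaction test. In the pellets between 3w and 5m no member passed (0.0301% of all genes did, 6 members had an unadjusted p under 0.05, and DESeq2 called 0), although 42 of the 46 members (91.3%) had a change in SC_SYN below that in SC_TH, against 52.9% of all genes, with a median of -0.20. Ndufs4 (-0.63, adjusted p = 0.275), Ndufa4 (-0.49) and Ndufb8 (-0.42) had the smallest p. Between 5m and 18m none passed either (0.0% of all genes, 8 members with an unadjusted p under 0.05, DESeq2 1), the smallest p being those of Ndufa2 (-0.94, adjusted p = 0.13), Ndufb7 (-0.67) and Ndufb8 (-0.43). In the inputs between 3w and 5m none passed (0.0224% of all genes, 2 members with an unadjusted p under 0.05, DESeq2 0), with Ndufa4 (-0.32), Ndufv2 (-0.38) and Ndufa9 (-0.38) first by p. Between 5m and 18m, 2 members passed, where 2.42% of all genes did. Ndufa2, of the peripheral arm, went from 29.8, 23.6, 23.8 and 24.7 CPM to 30.3, 40.6, 32.1 and 34.3 in input_TH, and from 46.9, 55.1, 37.1 and 47.5 to 33.9, 43.4, 29.1 and 42.4 in input_SYN. The ages did not overlap in the homogenate and overlapped in synaptosomes, and the difference of the changes was -0.78 (SE 0.192, adjusted p = 0.0291). For Ndufa13 it was -0.51 (SE 0.132, adjusted p = 0.0368), its input_SYN values being 97.3, 97.5, 80.7 and 89.6 and then 81.7, 90.6, 80.8 and 89.9 CPM. The 2 calls became 0 without mouse 192, 194 or 195 and 1 without mouse 191, 193, 196 or 198, and DESeq2 gave 5.

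The ratio of pellet over input was compared between ages in the same way. In synaptosomes no member passed for 3w to 5m or 5m to 18m (0.0% and 0.0% of all genes, 0 members with an unadjusted p under 0.05 and 0 by DESeq2 in either). In the homogenate between 3w and 5m none passed either (2.33% of all genes, 13 members with an unadjusted p under 0.05), with Ndufb11 (0.64, adjusted p = 0.0518), Ndufa7 (0.66, adjusted p = 0.0576) and Ndufb7 (0.54, adjusted p = 0.0668) just short. With the mouse as a block 2 passed, DESeq2 called 7, and leaving out 1 mouse gave 0 to 7, the highest without mouse 192. Between 5m and 18m none passed (1.78% of all genes, 9 members with an unadjusted p under 0.05), with Ndufa13 (-0.43, adjusted p = 0.0523), Ndufa4 (0.41, adjusted p = 0.058) and Ndufb9 (-0.37, adjusted p = 0.077) first. There DESeq2 called 3, and leaving out mouse 191 gave 5.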

How the data were processed

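RNA of 4 fractions from each of 12 mice gave 48 libraries. The authors made rRNA-depleted, strand-specific libraries with UMI adaptors, and mapped single-end reads to GRCm38 (TopHat2 2.1). Reads were assigned to genes by featureCounts in unstranded mode, and the file deposited holds the raw counts. Whether UMIs were used, and which library was in which sequencing run, is not given in the sources used here. Symbols, exonic length and G and C content came from GENCODE M21.

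The members and gene lists were chosen with earlier results of these data known. The tool for all tests was edgeR 4.0.16 in R 4.3.3 (TMM, filterByExpr, glmQLFit, glmQLFTest), with Benjamini-Hochberg adjustment over all genes tested and a threshold of 0.05. Comparisons between fractions and the interactions were fitted over 24 libraries, and comparisons of ages over the 12 of a fraction. Levels are TMM-scaled CPM, logged with a prior count of 2. In each of 28 comparisons up to 10 members per direction were named by smallest p, or the 3 smallest p where fewer than 3 passed, and in addition the core subunits, Ndufs4, Ndufab1, Ndufa4, Ndufa4l2, Ndufa1, Ndufb11 and Ndufaf1 to Ndufaf8, and genes of the other lists past the threshold or at their extremes.

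The 4 libraries of a mouse come from 1 animal. Their deviations from group means correlated with medians of -0.05 to 0.18 over the 6 pairs of fractions. Alternatives were DESeq2 1.42.0, library size scaling, no filter, the mouse as a block, each mouse left out, and removal of a loess trend (span 0.5) on G and C content and length. Not every member passing a test is reported here by name. The code was tested on simulated data.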

Additional observations from a re-analysis of the deposited data

Results flagged for a closer look

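In the inputs between 5m and 18m the change in synaptosomes differed from that in the homogenate for Ndufa2 by -0.78 and for Ndufa13 by -0.51 on the log2 scale, by the interaction test. The cause was not tested.

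Among the 144 groups of 4 libraries examined for the median level and for the members whose levels are printed, 5 held a library far from the other 3 by Dixon's criterion, where about 7.2 would be flagged by chance. Mouse 187 had the highest Ndufa1 level in input_SYN at 3w (31.4 CPM, others 29.6 to 29.9, gap over range 0.852). Mouse 195 had the highest Ndufs4 level in input_TH at 18m (19.0 CPM, others 14.9 to 15.5, gap over range 0.858), and mouse 191 in SC_TH at 5m (27.9 CPM, others 27.1 to 27.2, gap over range 0.873). Mouse 189 had the highest Ndufa4 level in SC_TH at 3w (70.03 CPM, others 64.5 to 64.7, gap over range 0.959). For Ndufa4l2 in input_SYN at 3w, mouse 187 had 0.267 CPM and the others 0 (gap over range 1.0), a gap that rests on single reads.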

How the results depend on the processing

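Most totals of called members kept their size. Of the 104 counts of called members computed under another tool, scaling, filter or block, 88 stayed within 1.5 times, as did 141 of 176 with a mouse left out. These counts took higher and lower calls together and do not register a change of direction. With library size scaling, higher calls outnumbered lower ones in synaptosomes only in the pellets at 3w, as given above. Single members were checked in a set of comparisons that does not cover every value named above. In that set, 102 of 788 values with a mouse left out no longer passed the test, 13 newly passed, and none reversed under the alternatives run. Ndufa4, Ndufa13, Ndufb6, Ndufs5 and Ndufs6 were not in that set for synaptosomes over homogenate at a given age, so their direction under other scaling was not checked there. With the mouse as a block, the count for the homogenate ratio of pellet over input between 3w and 5m became 2 in place of 0, and no other count moved by over 1.5 times.

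Scaled by library size, the members' median over homogenate turned to -0.091, -0.24 and -0.378 in the pellets and -0.164, -0.166 and -0.227 in the inputs at 3w, 5m and 18m, the pellet count at 3w was 19, the median of SC_TH over input_TH at 5m was 0.417, input_TH between 3w and 5m had 5 calls, and the homogenate ratio between 5m and 18m had 1. With DESeq2 the input medians, synaptosomes over homogenate, were 0.336 at 3w and 0.385 at 5m, and the counts were 1 for the pellet interaction between 5m and 18m, 5 for the input interaction, 7 and 3 for the homogenate ratio between 3w and 5m and between 5m and 18m, 1 each for SC_SYN and SC_TH between 5m and 18m, and 2 for input_SYN between 3w and 5m. Without the filter the medians were 0.093 (pellets, 18m), 0.362 (inputs, 3w) and 0.548 (SC_SYN over input_SYN, 5m), and the counts were 1 for the input interaction between 5m and 18m, 8 and 1 for the homogenate ratio, 2 for SC_TH between 5m and 18m and 2 for input_SYN between 3w and 5m. With the trend on G and C content and length removed, the input medians were 0.712, 0.602 and 0.535. Those over all genes moved up too, to 0.155, 0.108 and 0.120. With the same trend removed, SC_SYN over input_SYN at 18m was 0.321 and SC_TH over input_TH at 3w was 0.34. The changes of the ratio were 0.025 (synaptosomes, 3w to 5m) and 0.122 (homogenate, 5m to 18m). The mean in place of the median gave levels of 4.35 and 4.365 (input_TH at 3w and 5m), 4.961 (SC_TH at 18m), 4.588 (input_SYN at 3w) and 5.073, 5.022 and 4.927 (SC_SYN).

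With a mouse left out, the medians ranged from 0.253 to 0.381 (pellets, 5m), -0.228 to -0.13 (pellet interaction, 5m to 18m), 0.304 to 0.36 (SC_SYN over input_SYN, 18m) and 0.533 to 0.61 (SC_TH over input_TH, 5m). The counts ranged from 11 to 18 (pellets, 18m), 0 to 2 (input interaction, 5m to 18m), 9 to 10 and 7 to 11 (SC_SYN over input_SYN at 3w and 5m), 0 to 7 and 0 to 5 (homogenate ratio, 3w to 5m and 5m to 18m), 1 to 4 (SC_SYN, 3w to 5m), 2 to 13 (SC_TH, 3w to 5m), 0 to 2 (SC_TH, 5m to 18m), 0 to 0 (input_SYN, 3w to 5m) and 2 to 5 (input_TH, 3w to 5m). The cause of these shifts was not tested. Depth limits most the input_SYN libraries at 3w.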

Other observations

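Some members of high G and C content varied widely between synaptosomal libraries of 1 age. The core subunit Ndufs7 had 53.9, 12.98, 32.5 and 40.4 CPM in SC_SYN at 3w and 27.8, 49.9, 48.4 and 24.4 at 18m. The membrane-arm subunit Ndufa11 had 48.6, 9.60, 18.7 and 35.4 CPM at 3w and 22.2, 46.7, 46.7 and 14.8 at 18m, in the same order of mice. Mouse 188 was lowest for both at 3w, and mice 195 and 198 lay below mice 196 and 197 for both at 18m. Two-way splits also ran the other way. At 18m Ndufv2 (44.2% G and C) had 108, 84.6, 73.0 and 138 CPM. Ndufa9 (48.5%) had 146, 104, 96.1 and 170 CPM. The SC_SYN libraries of mice 195 and 198 were shallower (6268207 and 5341263 counts) than those of mice 196 and 197 (18590040 and 15306804). In input_SYN at 18m the lowest value of Ndufs7 and of Ndufa11 was that of mouse 197 (12.3 and 9.16 CPM), which was not low in the pellet. These genes were chosen after their values were seen, and the cause was not tested.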
